A study of Mus musculus with 86 samples.

Results

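Adipocyte transcripts were followed across every mouse kidney, liver and lung library of a study of the receptor kinase MERTK in tissue fibrosis. The 9 genes were Adipoq, Fabp4, Plin1, Plin4, Cidec, Cfd, Retn, Lep and Car3, of 31054 genes in the count files and 38277 rows in each FPKM table. They were chosen by name as genes of fat cells after earlier results of these data had shown them high in 1 obstructed wild-type kidney library, so the kidney levels of the knockout experiment are given as a description, with no test read from them. The knockout experiment had 4 libraries each of Mertk knockout mice with unilateral ureteral obstruction (UUO, the ureter of 1 kidney tied off), wild-type mice with UUO, sham-operated knockout mice and sham-operated wild-type mice, all kidney. It had 4 liver libraries each of knockout mice with bile duct ligation (BDL), wild-type mice with BDL, sham knockout mice and sham wild-type mice. In the inhibitor experiment all mice were labelled wild type and were injected with UNC569, a small-molecule MERTK inhibitor, or with its solvent DMSO. Its tables held 7 UUO UNC569, 4 UUO DMSO, 3 sham UNC569 and 3 sham DMSO kidney libraries, 4 BDL UNC569, 6 BDL DMSO, 3 sham UNC569 and 3 sham DMSO liver libraries, and 6 bleomycin UNC569, 6 bleomycin DMSO, 3 sham UNC569 and 3 sham DMSO lung libraries. The labels gave no strain, age, sex, dose or time, and did not say which part of Mertk was deleted. They did not name the animal behind a library, so p-values measure the spread between these libraries.

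White fat cells store triglyceride in a single large lipid droplet and release it as fatty acids when other organs need fuel. They also secrete hormones, the adipokines, and their droplet is coated by perilipins and CIDE proteins that set how fast the fat is broken down. Fat surrounds the kidney, fills the renal sinus, and lies along the airways, the mediastinum and the heart, while the liver's own storage cells for fat are hepatocytes. In a bulk library, fewer cells of a type and less RNA per cell cannot be told apart.

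The 9 genes fall into secreted products, droplet coat proteins and enzymes or carriers of the fat cell. Adipoq (ENSMUSG00000022878, chr16:23146536-23158028, plus strand, GRCm38) encodes the hormone adiponectin. Lep (ENSMUSG00000059201, chr6:29060220-29073877, plus strand) encodes the satiety hormone leptin. Retn (ENSMUSG00000012705, chr8:3655770-3660110, plus strand) encodes resistin, an adipokine of mouse fat. Cfd (ENSMUSG00000061780, chr10:79890853-79892655, plus strand) encodes adipsin, the serine protease complement factor D. Plin1 (ENSMUSG00000030546, chr7:79720218-79732903, minus strand) encodes the main perilipin of the fat cell droplet. Plin4 (ENSMUSG00000002831, chr17:56100591-56109803, minus strand) encodes another perilipin and overlaps Hdgfl2 on the other strand. Cidec (ENSMUSG00000030278, chr6:113424634-113435760, minus strand) encodes the protein that fuses small droplets into a large one. Fabp4 (ENSMUSG00000062515, chr3:10204088-10208576, minus strand) encodes a fatty acid carrier of fat cells, also made by endothelial cells and macrophages. Car3 (ENSMUSG00000027559, chr3:14863512-14872523, plus strand) encodes carbonic anhydrase 3, abundant in fat, in slow muscle and in hepatocytes.

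Promoter sequence from RefSeq (GRCm38.p6) was on hand for 7 of the 9 genes, all but Fabp4 and Car3. Those of Adipoq, Plin1 and Lep are shown as examples of the genes least shared with other cell types. They were not picked as the genes closest to each other, since Lep followed Adipoq less closely than Retn, Cfd and Cidec did in knockout kidneys. Each line is the 250 bases before the annotated start, 5′ to 3′ on the gene's strand. Capitals mark matches to CCAAT or to TTGCNNAA, a common form of the site of C/EBP factors, on either strand.
Adipoq, chr16:23146286-23146535, plus strand: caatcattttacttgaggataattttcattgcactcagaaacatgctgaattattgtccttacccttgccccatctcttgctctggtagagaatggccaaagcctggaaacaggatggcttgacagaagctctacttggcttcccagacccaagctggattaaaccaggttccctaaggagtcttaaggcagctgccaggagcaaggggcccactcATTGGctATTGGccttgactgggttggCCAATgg
Plin1, chr7:79732777-79733026, minus strand: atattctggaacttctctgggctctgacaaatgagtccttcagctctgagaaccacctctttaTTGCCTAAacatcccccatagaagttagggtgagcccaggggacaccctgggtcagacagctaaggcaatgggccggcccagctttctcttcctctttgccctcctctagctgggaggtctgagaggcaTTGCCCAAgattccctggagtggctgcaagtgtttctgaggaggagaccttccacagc
Lep, chr6:29059971-29060220, plus strand: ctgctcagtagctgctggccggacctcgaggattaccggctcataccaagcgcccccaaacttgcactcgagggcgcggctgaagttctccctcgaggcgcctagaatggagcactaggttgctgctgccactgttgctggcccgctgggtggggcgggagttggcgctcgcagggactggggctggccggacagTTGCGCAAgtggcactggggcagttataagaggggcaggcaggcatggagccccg
The motifs searched on both strands were the CCAAT box, the nuclear receptor element AGGTCA, the TATA box TATAAA, the C/EBP form TTGCNNAA and the E-box CACGTG. Adipoq held 3 CCAAT matches within the last 34 bases, and 33.8% of 32851 mouse promoters of the same length held that motif. Plin1 held 2 matches to TTGCNNAA and Lep held 1, which reads the same on both strands, against 9.56% of all promoters with this motif. No match overlapped a match to another motif. The Adipoq window had 48.8% G and C and 0 CpG, the Lep window 65.6% and 16 CpG, and the median of all promoters was 52.4% and 6 CpG. The Cidec promoter at its second annotated start (chr6:113434765-113435014, minus strand) held 1 TTGCNNAA match, the Plin4 promoter held 1 CCAAT match, and the Cfd and Retn windows held neither these nor the other motifs.

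Levels in the knockout experiment are CPM, read counts scaled to the library total and by TMM, which corrects for library composition, and levels in the inhibitor experiment are FPKM, fragments scaled to transcript length and to the total mapped. Reads in genes came to 7.22 to 28.5 M per kidney library and 14.5 to 23.4 M per liver library, so 3 reads, the most that a count of 0 allows, come to 0.105 to 0.416 CPM in kidney and 0.128 to 0.207 CPM in liver. This covers counting error only, and the depth behind the FPKM values is unknown. Mertk itself lay at 40.5 to 57.7 CPM in UUO kidneys labelled KO and 33.8 to 59.2 CPM in UUO kidneys labelled WT, and at 61.0 to 83.8 CPM in sham kidneys labelled KO and 34.1 to 81.5 CPM in those labelled WT. Its counts over the whole gene therefore did not separate the genotypes in kidney, and KO and WT below are the labels' words. In liver Mertk lay at 6.95 to 18.8 CPM in BDL KO and 21.3 to 28.4 CPM in BDL WT libraries, and at 10.8 to 20.5 CPM in sham KO and 10.5 to 18.1 CPM in sham WT libraries. A pair of kidney libraries stood apart in their tissue markers. In sham WT 1 the 8 hepatocyte genes summed to 290828 CPM, against 83.7 to 2579.8 CPM in the other 15 kidney libraries, and the 7 proximal tubule genes to 71.4 CPM. In UUO WT 1 the proximal tubule genes summed to 40.02 CPM, the lowest of 16 libraries.

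Adipocyte transcripts filled 1 obstructed kidney library and were present at low levels in a few others. Adipoq had 0.76, 1.12, 16.6 and 1.43 CPM in the 4 UUO KO libraries, 825, 8.96, 21.3 and 2.86 CPM in the UUO WT libraries, 0.0766, 0.0521, 0.149 and 0.0859 CPM in the sham KO libraries, and 0, 0.409, 14.2 and 0.0837 CPM in the sham WT libraries. UUO WT 1 was the highest by far, UUO WT 3, UUO KO 3, sham WT 3 and UUO WT 2 followed, and every sham KO library lay below every UUO library. The 825 CPM rest on 15119 reads.

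Cfd had 1.71, 2.49, 68.8 and 3.31 CPM in UUO KO libraries, 7239.6, 76.4, 171 and 21.5 CPM in UUO WT libraries, 0.689, 0.365, 1.86 and 0.0859 CPM in sham KO libraries, and 0.787, 4.83, 24.7 and 2.34 CPM in sham WT libraries. The 5 libraries with the most Adipoq were also highest in Cfd, and the UUO and sham groups of either genotype overlapped. Retn had 0.095, 0.195, 6.48 and 1.62 CPM in UUO KO libraries, 431, 4.95, 16.6 and 2.41 CPM in UUO WT libraries, 0.0766 to 0.522 CPM in sham KO libraries, and 0, 0, 8.67 and 0.669 CPM in sham WT libraries. Resistin transcripts were highest in the same 5 libraries. Lep reached 20.96 CPM in UUO WT 1, from 384 reads, and stayed at 0 to 0.747 CPM in the other 15 kidney libraries, with 0 reads in 8 of them. Leptin was too low outside UUO WT 1 for the groups to be told apart at this depth.

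The droplet genes Plin1 and Cidec were highest in the same 5 libraries, and Plin4 was not. Plin1 had 0.95, 0.244, 16.4 and 0.827 CPM in UUO KO libraries, 994, 9.001, 17.03 and 3.13 CPM in UUO WT libraries, 0.0766 to 0.298 CPM in sham KO libraries, and 0, 1.23, 16.6 and 0.502 CPM in sham WT libraries. Cidec had 0.238, 0.195, 10.2 and 0.668 CPM in UUO KO libraries, 854, 13.9, 24.1 and 3.18 CPM in UUO WT libraries, 0.23 to 0.988 CPM in sham KO libraries, and 5.12, 0.573, 17.6 and 0.92 CPM in sham WT libraries. Both genes were highest in UUO WT 1 and next in UUO WT 3, and in both the sham WT range reached into the UUO WT range through sham WT 3. Plin4 had 2.28, 3.22, 20.9 and 43.3 CPM in UUO KO libraries, 671, 10.2, 18.8 and 4.45 CPM in UUO WT libraries, 1.25 to 3.31 CPM in sham KO libraries, and 11.7, 0.164, 168 and 4.43 CPM in sham WT libraries. Plin4 was out of step in UUO KO 4 and sham WT 3, the libraries with 32.02% and 58.5% of reads unmapped. It also overlaps Hdgfl2 on the other strand, and the kit does not mark strand. What part unmapped reads or this overlap have in these values was not tested.

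Fabp4 and Car3 were not tied to the fat signal alone. Fabp4 had 34.3, 33.7, 69.3 and 56.9 CPM in UUO KO libraries, 3993, 63.6, 169 and 41.2 CPM in UUO WT libraries, 21.99, 13.9, 10.8 and 43.6 CPM in sham KO libraries, and 24.3, 31.6, 200.7 and 43.6 CPM in sham WT libraries, so each kidney library held at least 10.8 CPM with or without Adipoq. Car3 had 9.79, 5.13, 129 and 15.8 CPM in UUO KO libraries, 5141, 71.3, 189 and 22.5 CPM in UUO WT libraries, 77.7, 115, 52.4 and 46.4 CPM in sham KO libraries, and 5262, 76.9, 108 and 66.3 CPM in sham WT libraries. The Car3 level of sham WT 1 came with an Adipoq count of 0 and with the hepatocyte genes given above. TMM multiplied the CPM of that library by 2.02, and its unscaled Car3 level was 2610.3 CPM. In all, reads of the 9 genes made up 2.25% of the reads in genes of UUO WT 1, against 0.263% in sham WT 1, nearly all Car3, and 0.00585% to 0.0794% in the other 14 kidney libraries.

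**Figure D1:**
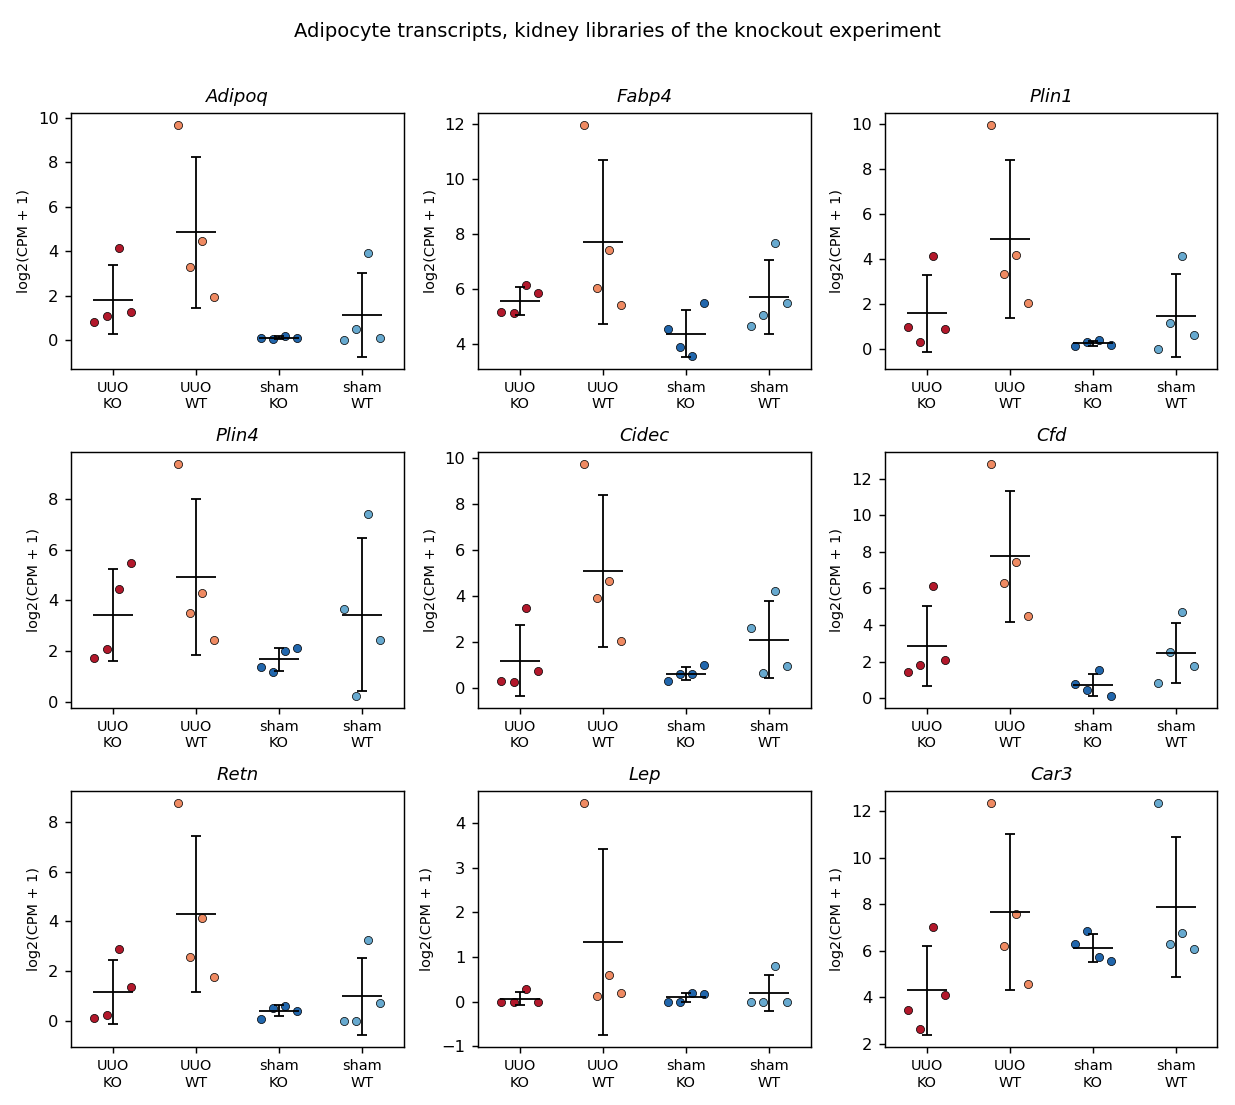
Level of each of the 9 adipocyte genes in the 16 kidney libraries of the knockout experiment, as log2(CPM + 1); points are libraries (left to right replicates 1 to 4), bars the mean and SD of 4 libraries. The first UUO WT point is the highest or, for Car3, level with the first sham WT point in every panel.

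The fits over all genes give these patterns as counts, from which nothing is read because the genes were picked on these libraries. Of the 8 members tested (Lep was below the filter on low counts), edgeR's quasi-likelihood test at an adjusted p under 0.05 called 6 higher in UUO WT than in sham WT kidneys, where 37.7% of 16162 genes were called. Without UUO WT 1 it called 0 of them, and DESeq2 called 0 with all libraries. Between UUO KO and sham KO kidneys edgeR called 0 of 8, where 45.4% of genes were called, and DESeq2 called 0 members. There 3 members and 8620 of 16162 genes had an unadjusted p under 0.05 by edgeR. Without sham WT 1 and UUO WT 1, which share the estimate of spread, 3 members were called higher in UUO KO than in sham KO kidneys (Adipoq, Plin1 and Cfd), where 59.1% of genes were called. Between UUO libraries labelled KO and WT, edgeR called 0 members and 0% of genes (2107 genes at an unadjusted p under 0.05, and 15 by DESeq2), and 7 members had an unadjusted p under 0.05 but 0 were called by DESeq2. The log2 difference of Adipoq, UUO KO minus UUO WT, was -5.43 ± 1.91 (SE), and every member's range overlapped between the groups. Between sham KO and sham WT kidneys it called 0 members and 0% of genes (2842 at an unadjusted p under 0.05, 450 by DESeq2), with 3 members at an unadjusted p under 0.05. For the difference of the UUO responses, KO minus WT, it called 0 members, none at an unadjusted p under 0.05, and 0% of genes (4146 at an unadjusted p under 0.05, 1944 by DESeq2).

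Genes outside the 9 were also high in UUO WT 1. Of 17 other adipocyte genes, 15 were highest there of 16 kidney libraries, and the 17 summed to 11678 CPM against 610.3 to 4121 CPM elsewhere. The share of all genes highest in UUO WT 1 was not counted, so this count and like counts below are not a result about the lists. In the same fits, 3 of the 17 were called higher and 0 lower in UUO WT than in sham WT kidneys (median log2 1.06, against 0.04 for all genes), and 0 higher and 5 lower in UUO KO than in sham KO kidneys (median log2 -0.96, against 0.07). Both counts are below the 37.7% and 45.4% of all genes called. Thrsp, which promotes fatty acid synthesis, had 1477 CPM there and at most 76.4 CPM elsewhere. The beta-3 adrenergic receptor gene Adrb3 had 437 CPM there and at most 22.96 CPM elsewhere, and Lipe, hormone-sensitive lipase, 615 CPM and at most 33.3 CPM. Brown fat genes were high in UUO WT 1 too. Of the 8 brown adipocyte genes, 6 were highest there and the others were not. The 8 summed to 828.8 CPM in UUO WT 1 and 1.32 to 117 CPM elsewhere. Ucp1, the uncoupling protein that makes heat, had 341 CPM there against at most 1.52 CPM. Cidea, a droplet protein of brown fat, had 276 CPM there against at most 3.09 CPM, and Cox8b, a respiratory chain subunit, 113 CPM against at most 1.06 CPM. For Ucp1, Cidea and Cox8b the second highest library was UUO WT 3.

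Markers of other tissues moved with the fat genes in UUO WT 1, and their part in the values was not tested. The 5 smooth muscle genes, all highest there, summed to 2521 CPM against 19.7 to 552 CPM elsewhere. The 5 lymphocyte genes, also all highest there, summed to 235 CPM against 0.919 to 23.2 CPM, and the 6 endothelial genes (5 highest there) to 805 CPM against 143 to 413 CPM. The 11 adrenal genes (4 highest there) summed to 230.5 CPM against 3.14 to 72.8 CPM. Among them were the catecholamine synthesis genes Th at 64.7 CPM (at most 0.285 elsewhere) and Dbh at 117 CPM (at most 0.238 elsewhere), with Pnmt at 0 and the cortical gene Cyp11b1 at 2.07 CPM. Several marker lists besides those of fat were thus high in this library, while tubule genes were very low. Which cells or tissues these transcripts came from was not tested.

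By Pearson correlation of log2(CPM + 1) with Adipoq over the 16 kidney libraries, among 14213 genes that reached 5 CPM, Plin1 (0.99), Retn (0.98), Cfd (0.98), Cidec (0.95) and Fabp4 (0.94) were close to it, Lep (0.87) and Plin4 (0.84) less so, and Car3 was at 0.48 and at -0.07 without UUO WT 1 and UUO WT 3. The closest genes outside the 9 were Acvr1c (0.95), Gm48832, Slc1a3, Apol6, Serpina3c, Prph, Slc36a2, Trarg1, Adig and Nat8l (0.90). Acvr1c, Trarg1 and Adig are on the list of other adipocyte genes. The libraries share composition and depth differences, and UUO WT 1 weighs heavily, so these values describe an order only.

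In the inhibitor experiment Adipoq reached at most 16.8 FPKM in any kidney library. Adipoq had a lowest, median and highest value of 0, 0.222 and 0.868 FPKM in the 7 UUO UNC569 libraries, 1.82, 2.16, 1.51 and 16.8 FPKM in the UUO DMSO libraries, 10.2, 7.19 and 5.86 FPKM in the sham UNC569 libraries, and 0, 6.74 and 0 FPKM in the sham DMSO libraries. All UUO UNC569 libraries lay below all UUO DMSO and all sham UNC569 libraries, while 1 sham DMSO library was high and the other 2 were listed at 0. The libraries with at least 5 FPKM were 1 UUO DMSO library (column 3 of the table, whose columns are numbered from 0), all 3 sham UNC569 libraries and 1 sham DMSO library (column 1).

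Cfd had a lowest, median and highest value of 0, 0 and 9.03 FPKM in UUO UNC569 libraries, 5.26, 8.23, 13.2 and 97.2 FPKM in UUO DMSO libraries, 37.9, 23.9 and 30.2 FPKM in sham UNC569 libraries, and 0.617, 39.1 and 0.383 FPKM in sham DMSO libraries. Adipsin transcripts were highest in the same 5 libraries as Adipoq. Cidec had 0, 0.284 and 0.881 FPKM in UUO UNC569 libraries, 1.37, 0.684, 1.66 and 9.27 FPKM in UUO DMSO libraries, 6.47, 5.02 and 4.21 FPKM in sham UNC569 libraries, and 0.128, 3.82 and 0 FPKM in sham DMSO libraries. Plin1 had 0 to 0.151 FPKM in UUO UNC569 libraries, 0 to 1.40 FPKM in UUO DMSO libraries, 2.43, 1.40 and 1.47 FPKM in sham UNC569 libraries, and 0, 1.10 and 0 FPKM in sham DMSO libraries. Both droplet genes were highest in those 5 libraries too. Retn stayed at 0 to 0.352 FPKM and Lep at 0 to 0.13 FPKM in all 17 libraries, both below the filter.

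Car3 was high in every sham kidney, whatever its Adipoq level. Its lowest, median and highest values were 0.514, 1.19 and 2.15 FPKM in UUO UNC569 libraries, it had 3.04, 4.40, 6.69 and 33.2 FPKM in UUO DMSO libraries, 64.0, 44.2 and 53.6 FPKM in sham UNC569 libraries, and 32.3, 40.04 and 28.2 FPKM in sham DMSO libraries. The 2 sham DMSO libraries with Adipoq at 0 still had 32.3 and 28.2 FPKM of Car3, and only UUO DMSO column 3 reached sham levels. These 2 libraries, columns 0 and 2, also carried more of 2 hepatocyte transcripts, Alb and Apoa1, and hepatocyte transcripts in them means these below. The whole list of 8 hepatocyte genes set them apart less. It summed to 825 and 868 FPKM there, against 425 to 687 FPKM in the other sham kidney libraries. Alb, serum albumin, had 56.6 and 56.2 FPKM there, against 0.283 to 5.03 FPKM in the other 15 kidney libraries, and Apoa1, an apolipoprotein, had 130.4 and 162 FPKM, against 1.00 to 24.5 FPKM. Their part in the Car3 values, a gene that sham livers of this experiment held at 451 to 2164 FPKM, was not tested. Fabp4 spanned 24.03 to 89.1 FPKM over the 17 libraries, and its injury and sham ranges overlapped with either injection. Plin4 had 0.471 to 1.59 FPKM in UUO UNC569 and 1.38 to 2.25 FPKM in sham UNC569 libraries, which overlapped, and 1.03 to 2.76 FPKM in UUO DMSO and 0.809 to 1.02 FPKM in sham DMSO libraries, which did not, with a log2 difference of 0.39 ± 0.24 (SE) that was not called.

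**Figure D2:**
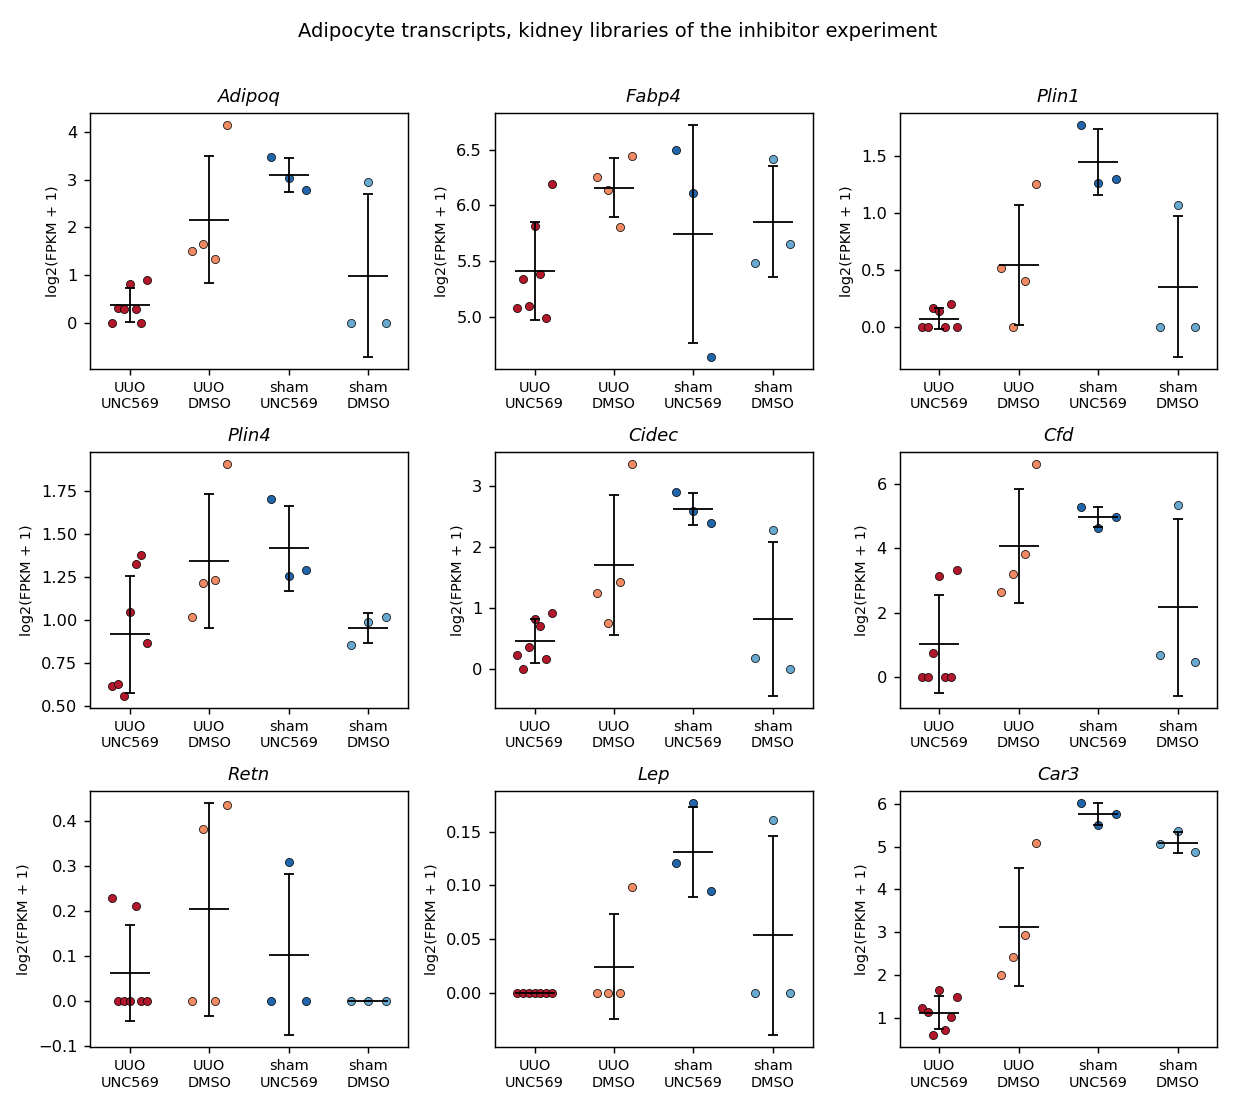
Level of each of the 9 adipocyte genes in the 17 kidney libraries of the inhibitor experiment, as log2(FPKM + 1); points are libraries, bars the mean and SD (7 UUO UNC569, 4 UUO DMSO, 3 sham UNC569 and 3 sham DMSO). The 7 UUO UNC569 points of Adipoq, at most 0.868 FPKM, lie below all UUO DMSO and sham UNC569 points, and 1 sham DMSO point lies far above the other 2.

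Adipoq, Plin1, Cidec, Cfd and Car3 fell in UUO UNC569 against sham UNC569 kidneys, in a comparison in which most genes moved. By limma on log2(FPKM + 1) with Benjamini-Hochberg adjustment over 15338 genes, 62.1% of which were called in this comparison, 5 of the 7 members tested fell and 0 rose, a share near that of all genes, so the count is not a result about the members. Adipoq fell by 2.73 ± 0.59 on the log2 scale (SE, limma adjusted p = 0.000627), and Car3 fell by 4.64 ± 0.44 (limma adjusted p = 7.21e-08). Cfd fell by 3.93 ± 1.03, Cidec by 2.17 ± 0.48 and Plin1 by 1.37 ± 0.26, with limma adjusted p of 0.00311, 0.000825 and 0.00016. For these 5 genes every UUO UNC569 library lay below every sham UNC569 library, and the share of all genes without overlap is not given here. On this scale a fold change of a low gene is understated. Of 15 other adipocyte genes tested, 11 fell and 1 rose (median log2 -1.70, against -0.07 for all genes).

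With DMSO, 1 of 7 members passed where 55.5% of genes were called. Car3 fell by 1.97 ± 0.49 in UUO DMSO against sham DMSO libraries (SE, limma adjusted p = 0.00234), with overlapping ranges because of UUO DMSO column 3. Without both sham DMSO libraries with hepatocyte transcripts, which leaves 1 sham DMSO library assumed to vary like the other groups, Car3 fell by 2.24 ± 0.75 (limma adjusted p = 0.0295). Adipoq averaged 5.57 ± 7.49 FPKM in UUO DMSO libraries and 2.25 ± 3.89 FPKM in sham DMSO libraries (SD, n = 4 and 3), a log2 difference of 1.18 ± 0.65 (SE, limma adjusted p = 0.136). Without sham DMSO column 1, the library with 6.74 FPKM, 4 members passed, so this count rests on a single library. Of 15 other adipocyte genes, 8 fell and 1 rose, among them Lpl, lipoprotein lipase, which fell by 3.27 ± 0.25 (limma adjusted p = 1.58e-08). The one that rose was Pparg, the master transcription factor of fat cells, by log2 1.24 ± 0.25 (limma adjusted p = 0.000413).

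Between obstructed kidneys given UNC569 or DMSO, 1 of 7 members passed where 1.3% of genes were called. Car3 averaged 1.24 ± 0.593 FPKM in UUO UNC569 libraries and 11.8 ± 14.3 FPKM in UUO DMSO libraries (SD, n = 7 and 4), and it fell by 2.00 ± 0.40 on the log2 scale (SE, limma adjusted p = 0.0303), all 7 libraries lying below all 4. The call was lost without any one of UUO DMSO columns 1 and 2 and UUO UNC569 columns 1 and 4 (limma adjusted p 0.0532 to 0.0851), and without both sham DMSO libraries with hepatocyte transcripts, which share the estimate of spread (limma adjusted p = 0.0502). Adipoq had no overlap either, with a log2 difference of -1.79 ± 0.53 (limma adjusted p = 0.0936). The share of all genes without overlap is not given here. An unadjusted p under 0.05 was found for 6 of 7 members and for 2829 of 15338 genes. The largest fitted difference was that of Cfd, -3.05 ± 0.94 (limma adjusted p = 0.106). Of 15 other adipocyte genes, 1 fell and 0 rose. It was Mgll, monoglyceride lipase, which fell by 0.62 ± 0.13 (limma adjusted p = 0.0334).

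In sham UNC569 against sham DMSO libraries, where 19.3% of genes were called, 3 of 7 members were higher and 0 lower. Adipoq averaged 7.74 ± 2.21 FPKM with UNC569 and 2.25 ± 3.89 FPKM with DMSO (SD, n = 3 each), a log2 difference of 2.11 ± 0.70 (SE, limma adjusted p = 0.042), with ranges that overlapped through sham DMSO column 1. Plin1 rose by 1.09 ± 0.30 (limma adjusted p = 0.0192) and Cidec by 1.81 ± 0.57 (limma adjusted p = 0.0351). The Adipoq and Cidec calls were lost with no filter on low values, with median-of-ratios scaling, and without any one sham UNC569 library, and all 3 calls were lost without sham DMSO column 0, sham DMSO column 2 or sham UNC569 column 0. Without both sham DMSO libraries with hepatocyte transcripts, the Adipoq difference was 0.15 ± 0.77 and 0 members were called, where 9.43% of genes were. The difference between the UUO responses, UNC569 minus DMSO, was called lower for 5 of 7 members where 19.6% of genes were called. It was -3.90 ± 0.88 for Adipoq (SE, limma adjusted p = 0.00641), -5.84 ± 1.54 for Cfd (limma adjusted p = 0.0149) and -2.67 ± 0.66 for Car3 (limma adjusted p = 0.0107). For Cidec it was -3.05 ± 0.72 and for Plin1 -1.56 ± 0.38, with limma adjusted p of 0.00876 and 0.0103. Without the same 2 sham DMSO libraries, which are also those with Adipoq at 0, this difference was -1.94 ± 0.88 for Adipoq and -2.41 ± 0.89 for Car3. That fit leaves a single sham DMSO library, and the part of hepatocyte transcripts in the 5 calls was not tested. These comparisons share the 4 groups, so their values are the same 17 libraries read in different ways.

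Tissue markers stood beside these values in the inhibitor kidneys, and their part in the calls was not tested. The 17 other adipocyte genes summed to 202 to 326 FPKM in UUO libraries and 964 to 1543 FPKM in sham libraries, in the sham libraries mostly from Lpl, Cd36, Gpd1 and Dgat2, which kidney cells also make. The 5 urothelial genes summed to 26.5 to 64.6 FPKM in UUO UNC569 and 111 to 143.5 FPKM in UUO DMSO libraries, with no overlap. The 5 smooth muscle genes summed to 20.4 to 30.99 FPKM in sham UNC569 and 81.3 to 95.1 FPKM in sham DMSO libraries, and the 6 endothelial genes to 38.7 to 68.1 FPKM and 123 to 140.3 FPKM, again with no overlap. These markers therefore separated groups that by their labels differ in injection. Other differences between these groups, such as in dissection, are not given in the labels and cannot be told apart from the injection. In UUO DMSO column 3, the library highest in Adipoq, the 8 brown adipocyte genes summed to 6.09 FPKM, within the 0.294 to 16.3 FPKM of the other UUO libraries. Dio2 made up most of the largest sum, at 16.1 FPKM in UUO UNC569 column 0. Ucp1 (0.701 FPKM), Cidea (1.11 FPKM), Cox8b (1.98 FPKM) and Otop1 (0.146 FPKM) were highest of the 17 libraries in UUO DMSO column 3, all at low levels. Dio2 and Elovl3 were highest elsewhere, and Cox7a1 and Zic1 were listed at 0 in all 17. Over the 17 libraries, Cidec (0.98) and Cfd (0.94) had the highest Pearson correlation with Adipoq, Car3 reached 0.70 and Fabp4 0.59. The closest genes outside the 9 of 12132 compared were Jade2 (0.78), Trim13 (0.74), Tmem140, Zfyve1, Llph-ps2, Rassf3, Spats2l, Tmem159, Tor1aip2 and Polg2, none of them on the adipocyte lists.

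Liver libraries held almost no fat cell transcripts. Adipoq and Lep had 0 reads in all 16 liver libraries of the knockout experiment, which allows at most 0.207 CPM in any of them. Plin1 and Retn had 4 reads each and Cfd 49 reads over the 16 libraries together. In the inhibitor experiment 1 of 16 liver libraries, BDL DMSO column 3, was above 0 for Adipoq (2.82 FPKM) and Plin1 (0.232 FPKM), and it also had the highest Cfd (4.29 FPKM, at most 0.704 in the other 15). The 3 genes singled out the same library. Retn and Lep were listed at 0 in all 16.

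The 4 members that passed the filter in liver, Car3, Cidec, Plin4 and Fabp4, are genes that hepatocytes or liver immune and endothelial cells also make. Car3 had 0.37, 4.59, 1.76 and 168 CPM in BDL KO libraries, 1.11, 8.30, 221 and 12.3 CPM in BDL WT libraries, 3169.8, 2287, 2736 and 3637 CPM in sham KO libraries, and 2495, 2837, 3307 and 3169 CPM in sham WT libraries. Each ligated liver lay below each sham liver. Car3 fell by 6.08 ± 1.71 on the log2 scale in BDL KO against sham KO livers (SE, edgeR adjusted p = 0.0185), the 1 of 4 members called where 25.1% of genes were called. It fell by 5.60 ± 1.67 in BDL WT against sham WT livers (SE, edgeR adjusted p = 0.0205), again 1 of 4 where 29.1% were called. The WT call was lost without BDL WT 2 or BDL WT 4 (edgeR adjusted p = 0.0522 and 0.054), and the KO call without the libraries with a noted bad read file (log2 -5.09, edgeR adjusted p = 0.103).

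In the inhibitor experiment Car3 had 0.637, 0.626, 30.4 and 1.68 FPKM in BDL UNC569 livers, 16.6, 2.95, 18.2, 19.01, 8.87 and 3.15 FPKM in BDL DMSO livers, 1907, 462 and 1612 FPKM in sham UNC569 livers, and 451, 2164 and 2034 FPKM in sham DMSO livers. Ligated and sham livers again did not overlap. It fell by 8.18 ± 0.93 in BDL UNC569 against sham UNC569 livers (SE, limma adjusted p = 4.7e-05), the 1 of 4 members called where 8.56% of genes were called. It fell by 6.95 ± 0.86 in BDL DMSO against sham DMSO livers (SE, limma adjusted p = 0.000117), 1 of 4 where 13.4% were called. Car3 was thus lower in ligated livers of both genotypes and with both injections, and it was the one member called in any of the 4 comparisons of ligated with sham livers.

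Of 13 other adipocyte genes tested in livers of the knockout experiment, 3 were called higher and 5 lower in BDL KO than in sham KO livers, where 25.1% of all genes were called, and 2 higher and 5 lower in BDL WT than in sham WT livers, where 29.1% were. Lpl was among the higher in both, by log2 1.75 ± 0.57 and 3.03 ± 0.60 (SE, edgeR adjusted p = 0.0364 and 0.00199).

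**Figure D3:**
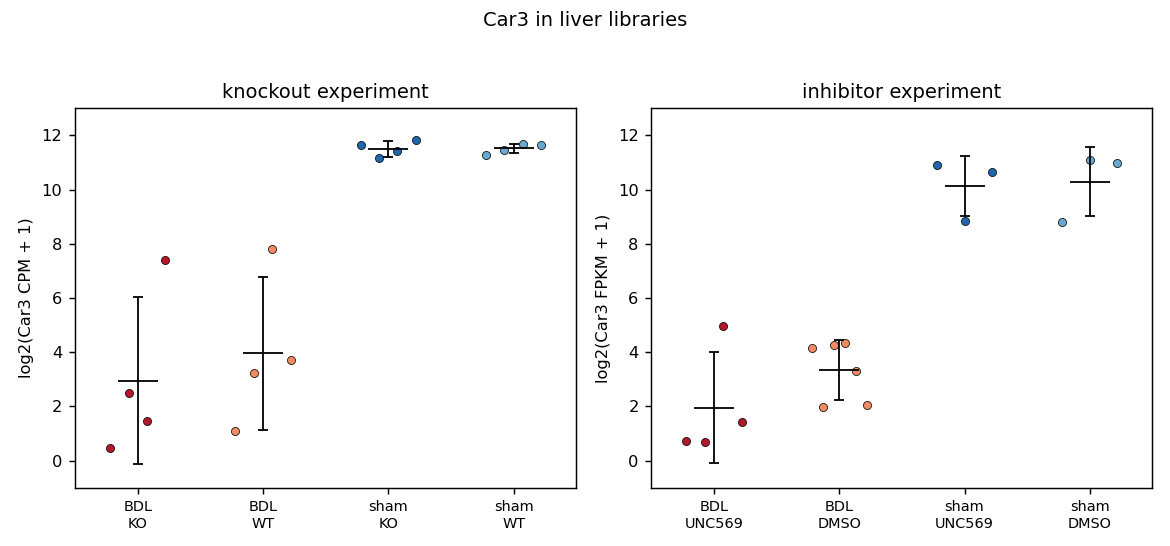
Car3 in liver libraries, left the knockout experiment as log2(CPM + 1), right the inhibitor experiment as log2(FPKM + 1); points are libraries, bars the mean and SD. All ligated livers, at most 221 CPM or 30.4 FPKM, lie below all sham livers, at least 2287 CPM or 451 FPKM.

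Neither genotype nor inhibitor moved a member in liver past the threshold. Between BDL KO and BDL WT livers 0 of 4 members were called by edgeR, none at an unadjusted p under 0.05 and 0 by DESeq2, where 4.39% of genes were called. Cidec had 13.1, 2.57, 17.6 and 20.8 CPM in BDL KO livers, 1.11, 1.47, 2.60 and 18.96 CPM in BDL WT livers, 4.13, 4.25, 3.66 and 7.50 CPM in sham KO livers and 3.35, 4.11, 3.99 and 7.76 CPM in sham WT livers, a log2 difference of 1.17 ± 0.75 between BDL KO and BDL WT (SE, edgeR adjusted p = 0.323). Its spread among ligated livers was wider than among sham livers, and the BDL groups overlapped. Plin4 had 42.01, 10.4, 16.0 and 1.20 CPM in BDL KO livers, 5.36, 14.3, 4.74 and 96.4 CPM in BDL WT livers and 4.18 to 19.6 CPM in sham livers. Fabp4 had 3.76 to 20.1 CPM in BDL KO livers, 4.00 to 14.3 CPM in BDL WT livers and 3.88 to 6.33 CPM in sham livers. Between BDL UNC569 and BDL DMSO livers limma called 0 of 4 members, none at an unadjusted p under 0.05, where 0.316% of genes were called, and Car3 differed by log2 -1.39 ± 0.78 (SE, limma adjusted p = 0.53). Sham KO against sham WT livers gave 0% of genes and 0 members by edgeR (70 genes and 0 members at an unadjusted p under 0.05, 0 genes by DESeq2). Sham UNC569 against sham DMSO livers gave 0% and 0 members by limma (241 genes and 0 members at an unadjusted p under 0.05). The difference of the BDL responses gave 0% of genes and 0 members for KO minus WT by edgeR (1952 genes and 0 members at an unadjusted p under 0.05, 146 genes by DESeq2), and 0% and 0 members for UNC569 minus DMSO by limma (610 genes and 0 members at an unadjusted p under 0.05).

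Lung libraries of 1 group varied widely in adipocyte transcripts. Adipoq had 1.16, 0, 24.8, 2.60, 0.155 and 18.9 FPKM in bleomycin UNC569 lungs, 0.169, 3.19, 0, 0, 0 and 26.8 FPKM in bleomycin DMSO lungs, 0.673, 387 and 9.81 FPKM in sham UNC569 lungs, and 87.1, 98.3 and 0 FPKM in sham DMSO lungs. Each group held libraries at or near 0 and at least 1 at 18.9 FPKM or more. Sham UNC569 column 1 was the highest of 18 for all 9 members, with Fabp4 at 944 FPKM, Car3 at 767 FPKM, Cfd at 761 FPKM, Cidec at 210.2 FPKM, Plin1 at 109 FPKM, Plin4 at 58.4 FPKM, Lep at 6.02 FPKM and Retn at 1.10 FPKM. It was also highest for 15 of the 17 other adipocyte genes, and the 17 summed to 2338 FPKM there against 467 to 1107 FPKM elsewhere. The share of all genes highest in that library was not counted, so these counts are not a result about the genes. The brown adipocyte sum of sham UNC569 column 1, 19.1 FPKM, was close to the 16.3 FPKM of the next library.

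Heart muscle transcripts moved with adipocyte transcripts in the lung libraries, and their part in the values was not tested. The 6 libraries whose cardiac muscle genes summed to over 200 FPKM (372 to 2493 FPKM, against 36.01 to 155 FPKM in the other 12) were also the 6 highest in Adipoq, at 18.9 to 387 FPKM against 0 to 9.81 FPKM. They were 2 bleomycin UNC569, 1 bleomycin DMSO, 1 sham UNC569 and 2 sham DMSO libraries. Myh6, the myosin of heart muscle, had 71.9 to 386 FPKM in them and 0 to 22.9 FPKM in the rest. The atrial myosin light chain Myl7 had at most 1.34 FPKM in any. Both genes are part of the cardiac sum that picked the 6 libraries, so the split of Myh6 adds nothing to it. For 8 of 9 members, all but Retn, no library of the 6 overlapped the other 12. The share of all genes that separate these libraries was not counted, so the count is not a result about the members. Plin1 had 5.14 to 109 FPKM in the 6 and 0 to 1.83 FPKM in the 12, and Lep 0.407 to 6.02 FPKM and 0 to 0.144 FPKM. Marker lists of other tissues also separated the same 6 libraries from the other 12. The skeletal muscle genes summed to 20.9 to 70.2 FPKM in the 6 and 1.55 to 14.7 FPKM in the 12. The smooth muscle genes summed to 273 to 550.5 FPKM and 150.1 to 256 FPKM, and the hepatocyte genes to 12.9 to 123 FPKM and 3.02 to 10.8 FPKM. The hepatocyte list holds Cyp2e1, which reached 116 FPKM in lung and made up most of the sum of 123 FPKM. Of the 8 hepatocyte genes, 2 were highest in that library, so this sum is not read as liver tissue. The part of these lists in the values was not tested either.

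**Figure D4:**
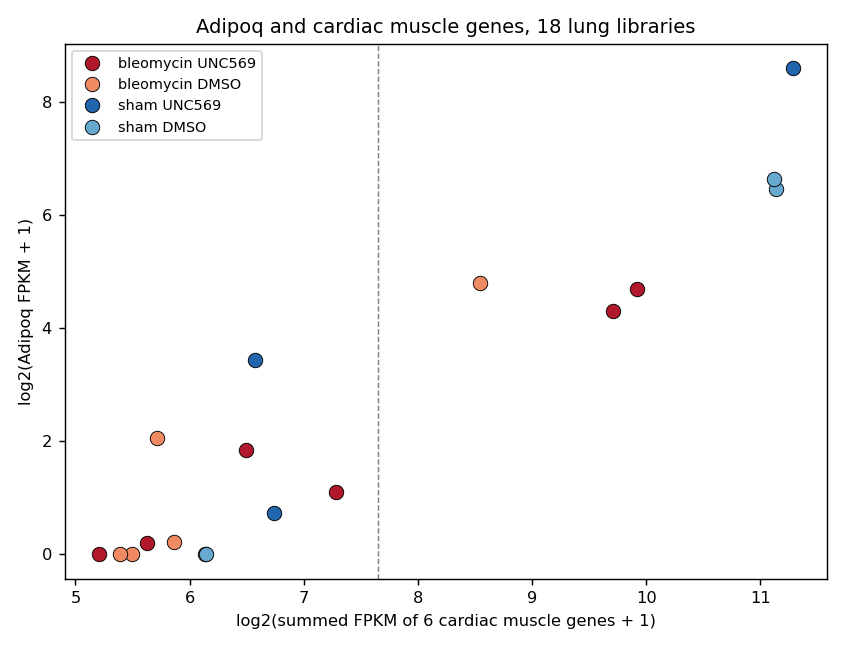
Adipoq (vertical axis) against the summed level of 6 cardiac muscle genes (horizontal axis) in 18 lung libraries, both as log2(FPKM + 1) on linear axes; each point is a library and colours give the group. The 6 points right of the dashed line at 200 FPKM have 18.9 to 387 FPKM of Adipoq and come from all 4 groups.

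No member passed the test between lung groups, and none of 16 other adipocyte genes did. Between bleomycin UNC569 and sham UNC569 lungs, 0 of 8 members passed limma, none at an unadjusted p under 0.05, where 0.0251% of 15935 genes were called. Between bleomycin DMSO and sham DMSO lungs 0 of 8 passed, where 0.069% of genes were called. Of the members 1, Plin4, had an unadjusted p under 0.05, as did 3122 of 15935 genes. Its log2 difference was -2.25 ± 0.82 (SE, limma adjusted p = 0.159). Adipoq averaged 7.93 ± 11.0 FPKM in bleomycin UNC569 lungs and 5.03 ± 10.8 FPKM in bleomycin DMSO lungs (SD, n = 6 each), a log2 difference of 0.85 ± 1.39 (limma adjusted p = 0.927), and 0% of genes and 0 members were called (843 genes and 0 members at an unadjusted p under 0.05). Sham UNC569 against sham DMSO lungs, 0% of genes, and the difference of the bleomycin responses, 0%, also gave 0 members (1206 and 1893 genes and 0 members at an unadjusted p under 0.05). Without the 6 libraries 0 members were called in the 3 bleomycin comparisons, but these 6 are also the 6 highest in Adipoq and their removal leaves 1 sham DMSO library, so nothing is read from this count.

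Over the 18 lung libraries the members had Pearson correlations with Adipoq of 0.99 for Car3, 0.97 for Plin1, Fabp4, Cfd and Plin4, 0.96 for Cidec and 0.89 for Lep. The closest genes outside the 9, of 12719 compared, were Cyp2e1 (0.97), Pck1, Thrsp, A530016L24Rik, Tmem45b, Dgat2, C130080G10Rik, Mybpc3, Slc2a4 and Kcnj5. Thrsp, Dgat2 and Slc2a4 are on the list of other adipocyte genes, Pck1 encodes an enzyme of glyceroneogenesis in fat, and Mybpc3 is a heart muscle gene. These correlations again share library composition.

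Where adipocyte transcripts were found, some members stood in like ratios to Adipoq in every set of libraries and others did not. The 17 libraries with at least 5 CPM or FPKM of Adipoq were 5 knockout kidney, 5 inhibitor kidney and 7 lung libraries, and levels were compared per kilobase of transcript. Cidec was 0.461 to 1.17 times Adipoq in knockout kidneys, 0.552 to 0.718 times in inhibitor kidneys and 0.544 to 1.01 times in lungs. Cfd was 2.43 to 12.3, 3.32 to 5.80 and 1.97 to 4.93 times Adipoq in the same order, and Lep 0.00402 to 0.0209, 0.00419 to 0.0181 and 0.0102 to 0.0321 times. Leptin transcripts were thus far below adiponectin transcripts wherever adipocyte transcripts were found. Plin1 was 0.366 to 0.552 times Adipoq in knockout kidneys, above the 0.083 to 0.251 times in inhibitor kidneys and the 0.186 to 0.341 times in lungs. Plin4 was 0.183 to 2.66 times Adipoq in knockout kidneys, the highest in sham WT 3, 0.146 to 0.247 times in inhibitor kidneys and 0.151 to 0.4 times in lungs. Fabp4 and Car3 were higher relative to Adipoq in most kidney libraries, at 6.03 to 20.4 and 4.79 to 6.82 times in knockout kidneys and 4.10 to 12.5 and 1.97 to 9.15 times in inhibitor kidneys, against 1.71 to 3.89 and 1.98 to 3.23 times in lungs. Retn was 0.443 to 0.884 times Adipoq in knockout kidneys, but 0 to 0.0333 times in inhibitor kidneys and 0 to 0.00286 times in lungs, listed at 0 in 3 of 5 and 6 of 7 libraries. The 2 experiments differ in counting and unit, which goes with this difference and cannot be told apart from it.

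**Figure D5:**
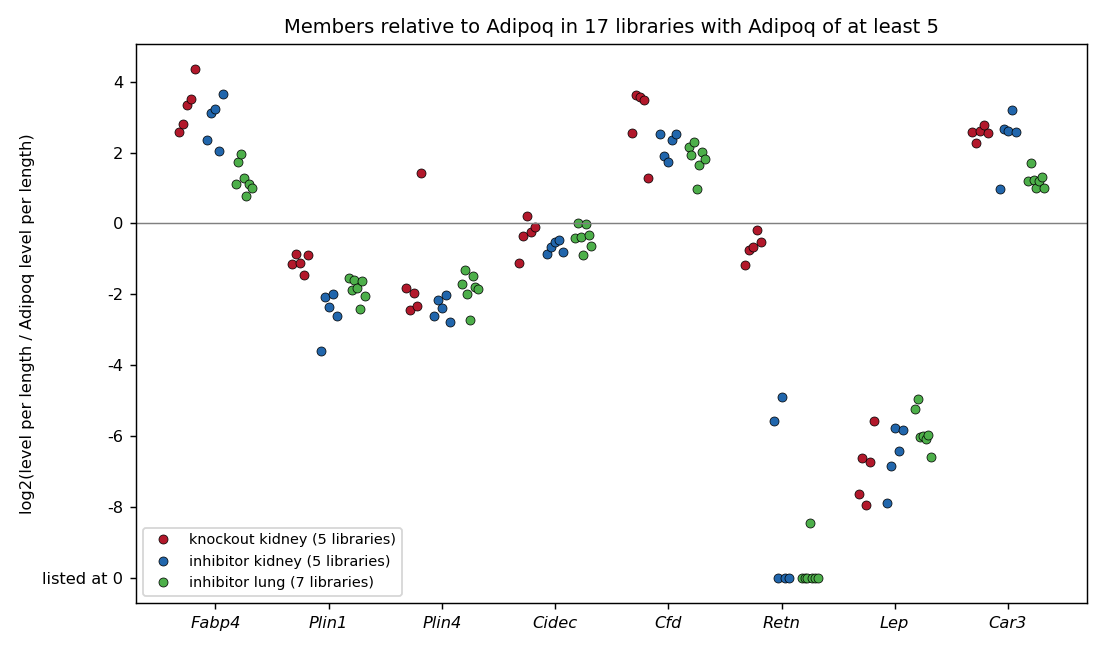
Level per kilobase of 8 adipocyte genes relative to Adipoq, on a log2 scale with ratios of 0 drawn at the bottom, in the 17 libraries with at least 5 CPM or FPKM of Adipoq; each point is a library and colours give organ and experiment. Retn lies near Adipoq in knockout kidneys (0.443 to 0.884 times) and at or near 0 in both inhibitor sets.

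Adipocyte transcripts were thus found, at 5 CPM or FPKM of Adipoq or more, in 10 of 33 kidney libraries, 0 of 32 liver libraries and 7 of 18 lung libraries. Whether they came from fat around the organ was not tested, as no record of dissection was among the labels.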

How the data were processed

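RNA was prepared with a Qiagen mini kit, and unstranded TruSeq v2 libraries were sequenced on an Illumina HiSeq, per the labels' protocols. The submitters' processing notes name FastQC, Trim Galore, STAR and edgeR, with no versions, and the builds mm10 and hg38. For the knockout experiment the authors deposited whole-number counts of reads per gene in STAR's layout, of which the unstranded column was taken. For the inhibitor experiment the authors deposited FPKM, made with a tool not given in the sources used here. Their columns name a group but not a sample, so libraries are named by column number, and 7 of 8 UUO UNC569 samples and 4 of 6 BDL UNC569 samples have a column.

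The quasi-likelihood test of edgeR 4.0.16 (R 4.3.3) was run on the counts after filterByExpr and TMM, with the 4 groups of an organ in 1 fit. Genes reaching 1 FPKM in 3 or more libraries were fitted within each organ by limma 3.58.1 (trend) on log2(FPKM + 1). P-values were adjusted by Benjamini-Hochberg over all genes tested, with a threshold of 0.05, and both fits were first tested on simulated data. Means ± SD are over libraries. DESeq2 1.42.0, other scalings, filters and pseudocounts, a replicate block and leaving out libraries were alternatives. The members, the marker lists and the tests were chosen with earlier results of these data known. Named genes are the members, genes of the lists described, and the 10 genes outside the members with the highest correlation with Adipoq, among genes reaching 5 CPM or FPKM. A single-library marker or a list is described by its values and counts only. Gene positions are from GENCODE vM21 (GRCm38) and 99.6% of 31054 gene IDs had a name there. Some libraries carry a note of a bad read file in the labels.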

Additional observations from a re-analysis of the deposited data

Results flagged for a closer look

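In groups of 4 to 7 libraries, 20 of 104 sets of values (19.2%) had 1 library far from the rest, against about 1 in 20 by chance for independent groups, and the 9 genes are not independent of each other. UUO KO 3 kidney stood apart for Adipoq (16.6 CPM, others 0.76 to 1.43), Plin1 (16.4 CPM), Cidec (10.2 CPM), Cfd (68.8 CPM) and Lep (0.21 CPM). Sham WT 3 kidney stood apart for Adipoq (14.2 CPM, others 0 to 0.409) and Lep (0.747 CPM). UUO WT 1 kidney stood apart for Lep (20.96 CPM), and sham WT 1 kidney for Car3 (5262 CPM). Distances were taken on log2(value + 1). On that scale UUO WT 1 was not flagged for Adipoq, though it had 825 CPM against 2.86 to 21.3 CPM in the other UUO WT libraries.

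In the livers of the knockout experiment, BDL KO 3 stood apart for Fabp4 (20.1 CPM) and for Plin1 (0.0799 CPM, a single read). In the inhibitor experiment, UUO DMSO column 3 stood apart for Adipoq (16.8 FPKM) and Lep (0.0703 FPKM). BDL DMSO column 3 stood apart for Adipoq (2.82 FPKM), Plin1 (0.232 FPKM) and Cfd (4.29 FPKM), and BDL UNC569 column 2 for Car3 (30.4 FPKM). Bleomycin DMSO column 5 stood apart for Plin1 (8.95 FPKM), Plin4 (6.76 FPKM) and Lep (0.407 FPKM).

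A test of the difference between the UUO responses with UNC569 and with DMSO in inhibitor kidneys called 5 of 7 members, where 19.6% of genes were called. The difference on the log2 scale was -3.90 for Adipoq, -1.56 for Plin1, -3.05 for Cidec, -5.84 for Cfd and -2.67 for Car3, each past an adjusted p of 0.05 by limma. Adipoq lay at 5.86 to 10.2 FPKM in the 3 sham UNC569 libraries and at 0, 6.74 and 0 FPKM in the sham DMSO libraries that enter these differences. Without both sham DMSO libraries at 0, which leaves 1 sham DMSO library, each difference was smaller, so their size depended on those libraries. The differences were then -1.94 for Adipoq, -0.85 for Plin1, -1.59 for Cidec, -2.68 for Cfd and -2.41 for Car3. A fit with 1 sham DMSO library cannot decide whether the calls hold. Both libraries left out also carry hepatocyte transcripts, whose part was not tested.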

How the results depend on the processing

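Over all comparisons and alternatives, 37 counts of called members were not within 1.5 times the main count, and of the single values 366 stayed, 34 lost their call and 13 levels moved with plain CPM in place of TMM scaling. No direction was reversed among members called in the main fits. Fold changes of the knockout kidney comparisons were left out of this check. Members called in UUO WT against sham WT kidneys, 6 in the main fit, were 0 with DESeq2, 0 without sham WT 1 and UUO WT 1, and 0 to 7 with a library left out (0 without UUO WT 1, 3 without sham WT 1, 1 without sham WT 2 or sham WT 4). In UUO KO against sham KO kidneys they were 3 without sham WT 1 and UUO WT 1, and 0 to 3 with a library left out, against 0. Leaving out each library in turn gave 0 to 2 in BDL WT against sham WT livers (2 without BDL KO 3), 1 to 2 in BDL KO against sham KO livers, 0 to 1 in BDL KO against BDL WT livers, 1 to 4 in UUO DMSO against sham DMSO kidneys, 0 to 2 in UUO UNC569 against UUO DMSO kidneys (2 without sham DMSO column 1), 0 to 4 in sham UNC569 against sham DMSO kidneys, and 0 to 1 in bleomycin DMSO against sham DMSO lungs (1 without sham DMSO column 2). Without libraries with a noted bad read file, BDL KO against sham KO livers gave 0. A pseudocount of 0.1 gave 2 in UUO DMSO against sham DMSO kidneys. In sham UNC569 against sham DMSO kidneys, no filter on low values and median-of-ratios scaling gave 1 each. For the difference of UUO responses, UNC569 minus DMSO, 4 to 6 members were called, Cfd being lost without sham DMSO column 2 (limma adjusted p = 0.0501). Without both sham DMSO kidney libraries with hepatocyte transcripts, an alternative chosen after seeing the data that leaves 1 sham DMSO library, 0 members were called in UUO UNC569 against UUO DMSO kidneys, 0 in sham UNC569 against sham DMSO kidneys and 0 for that difference of responses. The causes were not tested.

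Same-numbered libraries of the knockout experiment had correlations of -0.338 to 0.298, so the numbers were not taken to pair them. With a replicate block, 2 members were called in UUO WT against sham WT kidneys and 2 in UUO KO against sham KO kidneys, and no other count of members changed. Leaving out the 6 lung libraries with cardiac transcripts, and averaging sham DMSO lung columns 0 and 1, whose genes differed by a median of 0.106 (log2) against 0.157 in the next closest pair, were chosen after seeing the data and left 0 members called in lung. Lep and Retn rest on few reads outside UUO WT 1, and depth behind the FPKM values is unknown.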

Other observations

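Retn and Plin1 stood in different ratios to Adipoq in the 2 experiments. Per kilobase, Retn was 0.443 to 0.884 times Adipoq in 5 kidney libraries of the knockout experiment, and in 12 inhibitor kidney and lung libraries it was at most 0.0333 times. The lung library with the most Adipoq, sham UNC569 column 1 at 387 FPKM, listed Retn at 1.10 FPKM.

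Brown adipocyte genes went with the fat genes unequally. UUO WT 1 kidney had 341 CPM of Ucp1 beside 825 CPM of Adipoq, while Ucp1 was at most 2.71 FPKM in lung, where Adipoq reached 387 FPKM. The lung library sham UNC569 column 1 also held 123 FPKM over 8 hepatocyte genes, against 3.02 to 44.7 FPKM in the other 17 lung libraries. Most of that sum was Cyp2e1, which reached 116 FPKM and had a correlation of 0.97 with Adipoq over the lung libraries.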
